A study of Mus musculus with 2 samples.

Results

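The 78 genes for proteins of the mitochondrial ribosome were examined in DNase-seq data from mouse cerebellum. DNase-seq maps accessible chromatin by the cuts that DNase I makes in nuclei. The members are the protein-coding genes of the GENCODE M21 annotation of mm10 whose symbols begin with Mrpl or Mrps followed by a number, 78 of 21829 protein-coding genes. The symbol rule itself uses no measured value, though the members were chosen with earlier results of these data known. The 2 samples are cerebella of male B6CASTF1/J mice, F1 hybrids of C57BL/6J and CAST mice, at 36 days of age, with no treatment named and 1 library each. They are numbered as biological replicates 1 and 2 in the labels, where a single donor entry stands for both. Whether they are separate animals is therefore not settled, and their spread may be partly or wholly technical. They are called animals 1 and 2 below. Both form 1 group, so no groups could be compared and no test across samples was possible. Members are instead set beside all protein-coding genes by counts and medians. Every pair of values below gives animal 1 and then animal 2.

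Mitochondria keep a ribosome of their own, built from ribosomal RNAs encoded in mitochondrial DNA and from proteins that are all encoded in the nucleus, made in the cytosol and imported. This ribosome translates the few mitochondrial messenger RNAs, which encode subunits of the respiratory chain and of ATP synthase, on which neurons depend heavily for energy. NRF1, the ETS factor GABP and YY1 are transcription factors known to act at promoters of nuclear genes for mitochondrial proteins. Of the members, 51 encode proteins of the large subunit and 26 of the small subunit. The S18-family protein of Mrps18a and the protein of Mrps30 are counted with the large subunit, where they reside despite their symbols. Mrps36 was kept apart, since its product is now known as a part of the 2-oxoglutarate dehydrogenase complex. By ancestry, 45 members have a bacterial homologue, 31 are specific to mitochondria, and Mrps18a and Mrps18b are further copies of the bacterial S18 protein. The genes lie on 17 chromosomes, with 11 of them on chromosome 11.

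Sequences are shown first for the promoter with the strongest peak and for short sites that were footprinted in both animals. A footprint is a stretch of bases protected from cutting within accessible DNA, as the authors called it. All sequences are the C57BL/6J reference of GRCm38 (mm10). The CAST allele that each animal also carries may differ from them. The promoter of Mrpl17, at chr7:105811070-105811336 on the minus strand, carries from 5′ to 3′ an ETS motif and a pair of NRF1 motifs, in capitals, and all 3 lay in a footprint in both animals. The ETS motif is centred at -222 bp from the start and the NRF1 motifs at -33 and +5 bp.

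Mrpl17: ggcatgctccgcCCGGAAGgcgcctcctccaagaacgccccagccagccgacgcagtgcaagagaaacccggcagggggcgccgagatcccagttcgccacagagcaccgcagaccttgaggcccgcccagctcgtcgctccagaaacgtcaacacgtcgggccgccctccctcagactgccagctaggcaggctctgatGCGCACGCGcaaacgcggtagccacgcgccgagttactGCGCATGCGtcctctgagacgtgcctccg

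The 8 highest members with a footprinted NRF1 motif are lined up on the strand that reads GCGCANGCG, with the motif in capitals. For Mrpl17 this is the site at the start, within the sequence above. The others are at chr11:97315588-97315612 (Mrpl45), chr1:79775975-79775999 (Mrpl44), chr1:42851221-42851245 (Mrps9), chr13:14613108-14613132 (Mrpl32), chr3:94443300-94443324 (Mrpl9), chr11:58171623-58171647 (Mrpl22) and chr11:120484549-120484573 (Mrpl12).
Mrpl17: gagttactGCGCATGCGtcctctga
Mrpl45: agcctcctGCGCAGGCGcagctggc
Mrpl44: aagcacttGCGCACGCGcagtacac
Mrps9: tggagactGCGCAGGCGcagacctc
Mrpl32: tgacccttGCGCATGCGcaagaggg
Mrpl9: gcgcagctGCGCATGCGcggggtcc
Mrpl22: ctcggactGCGCATGCGtatagtca
Mrpl12: ggtgcgacGCGCAGGCGcggagaca

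The 4 members with a YY1 motif footprinted in both animals carry it downstream of the start on the gene's own strand, so that its ATG can be read in the transcript. The sites are at chr4:107066824-107066848 (Mrpl37), chr10:95501906-95501930 (Mrpl42), chr17:47368896-47368920 (Mrps10) and chr17:46111007-46111031 (Mrps18a), with centres at +32, +22, +17 and +33 bp.
Mrpl37: cacgggcaAAGATGGCGgcgtccag
Mrpl42: attgaagcAAGATGGCGagcgcgcg
Mrps10: agggcaccAAGATGGCGgcgcgcgc
Mrps18a: tgcgttccAAGATGGCGgccctcag

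Footprinted ETS sites read CCGGAAG, again in capitals, and after Mrpl17 the next 4 members by height lie at chr17:35916383-35916405 (Mrps18b), chr7:100583150-100583172 (Mrpl48), chr6:125192102-125192124 (Mrpl51) and chr19:45006440-45006462 (Mrpl43), centred at -5, -59, -52 and -9 bp. The sites of Mrps18b, Mrpl48 and Mrpl51 lie outside their gene's strongest peak in both animals, and the ETS site of Mrpl17 lies outside it in animal 1. For Mrpl48 the site is at its representative start. The only CRE motifs near a member's start, at chr19:6057894-6057917 (Mrpl49, centred at -120 bp) and chr19:11770358-11770381 (Mrpl16, -21 bp), were both footprinted in both animals.
Mrps18b: acggcctgCCGGAAGagcgactg
Mrpl48: tcttggttCCGGAAGtttttaaa
Mrpl51: gggctaaaCCGGAAGtatttgac
Mrpl43: ccccggaaCCGGAAGtcaccggt
Mrpl49: gctgcgtgTGACGTCActgcagcg
Mrpl16: ggacaggaTGACGTCActtcctgt

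Every member had an accessible promoter. All 78 had at least 1 peak within 1000 bp of a start in both animals, against 67.0% and 63.5% of all protein-coding genes and 62.9% in both animals together. All 78 also had a peak in each animal's smaller list, against 62.9% and 59.7% of all protein-coding genes. The height of a gene's strongest promoter peak is the value the authors deposited for that peak, on a scale that is not given in the sources used here, so levels are read within an animal. The tissue is a mixture of cells, so a peak in fewer cells and a weaker peak in each cell cannot be told apart. The larger lists held 140127 and 114404 peaks, with 342409 and 262603 footprints. All 6 granule cell markers and 3 of 4 Purkinje cell markers had a promoter peak in both animals (Pcp2 had none), and none of 4 forebrain, 3 liver or 3 striated muscle markers did. Of the other cells of the cerebellum, 3 of 4 glial, 1 of 3 oligodendrocyte, 1 of 4 microglial and 1 of 3 endothelial markers had a promoter peak in both animals. Heights differed widely, from 1.91 to 27.9 and from 5.36 to 17.4 over the granule cell markers. Of the Purkinje markers Itpr1 had 16.0 and 12.5, but Calb1 had 1.26 and 1.02 and Car8 0.640 and 0.405. The 3 glial markers had at most 0.986 and 0.968. The share of these cells in the members' peaks was not tested.

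Member peaks were of middle to high strength, and none fell below the 25th percentile of promoters with a peak. Their median height was 12.2 and 8.50, against 9.10 and 6.65 for all promoters with a peak, and the median member stood at the 61.5th and 60.8th percentile of those promoters (mean 61.2 ± 0.514, SD, n = 2 animals). Heights ran between 3.14 and 34.6 in animal 1 and between 3.15 and 24.2 in animal 2. With all promoters that have a peak cut at the 25th, 50th and 75th percentile, from lowest to highest, 0, 20, 34 and 24 members fell into them in animal 1 and 0, 25, 29 and 24 in animal 2. In both animals 50 members stood above the median promoter and 17 below it. The plot of member heights shows a gradual fall from Mrpl17 to Mrps22 with large and small subunit genes mixed along it.

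**Figure D1:**
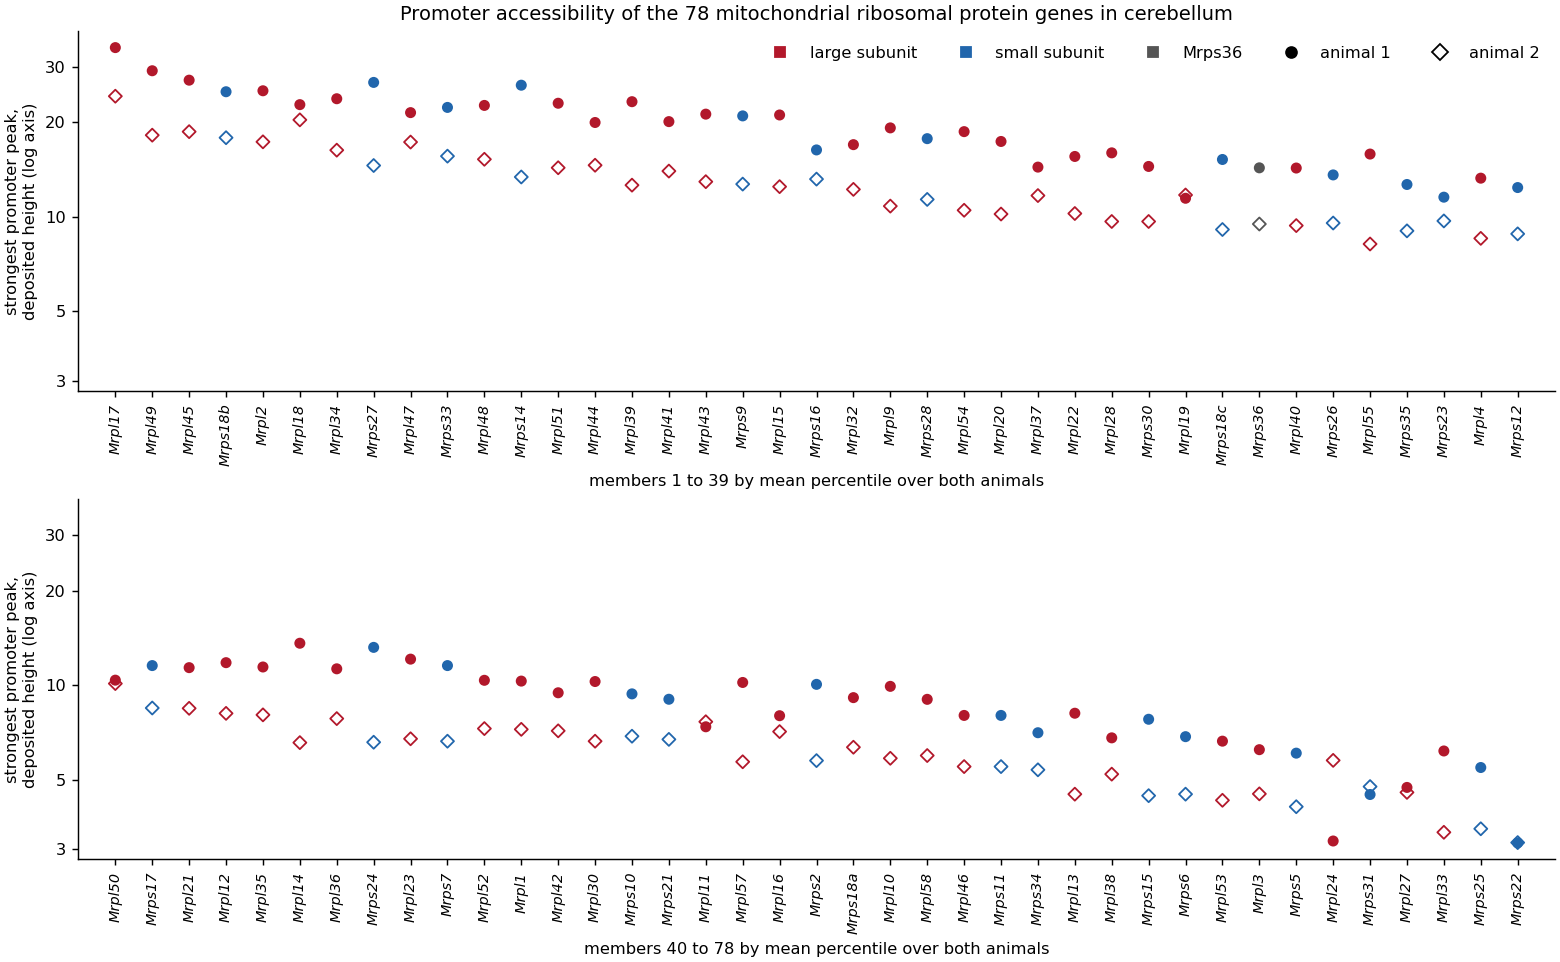
Height of the strongest promoter peak (deposited value, log axis) of each of the 78 members, ordered by their mean percentile over both animals in 2 rows. Filled circles are animal 1, open diamonds animal 2, and colours mark the subunit; most members run in parallel in both animals between 3.14 and 34.6, with Mrpl24 near the lower end going the other way.

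The strongest promoters belonged to both subunits. Mrpl17 (chr7:105803206-105811099, minus strand), which encodes the homologue of bacterial L17, had heights of 34.6 and 24.2 and was highest in both animals, at the 98.8th and 99.5th percentile. Mrpl49 followed with 29.2 and 18.2. Mrpl45, whose product sits at the exit of the ribosome's tunnel beside the inner membrane, had 27.3 and 18.7. Mrps18b, encoding an S18 paralogue of the small subunit, had 25.0 and 17.9. Mrpl2, whose bacterial counterpart L2 lies beside the peptidyl transferase centre, had 25.2 and 17.3. Mrpl18, the homologue of the 5S rRNA-binding bacterial L18, had 22.8 and 20.4. Mrpl34 had 23.8 and 16.3, and Mrps27, which encodes a pentatricopeptide repeat protein, had 26.8 and 14.6. These 8 all stood at or above the 87.8th percentile in both animals, and Mrpl17 and Mrpl45 were the ones among them whose strongest peak lay in no other coding gene's promoter window.

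The weakest promoters still had clear peaks. Mrps22, a mitochondria-specific small subunit gene (chr9:98588730-98601660, minus strand), was lowest with 3.14 and 3.15, at the 26.8th and 28.6th percentile. Mrps25 had 5.46 and 3.49, Mrpl33 6.17 and 3.40, Mrpl27 4.72 and 4.55, and Mrps31 4.48 and 4.75. Mrpl24, just above these 5 in mean percentile, was singled out after its values were seen: its height was 3.19 in animal 1 and 5.76 in animal 2, while the typical member was 1.46 times as high in animal 1. The ratio of animal 1 to animal 2 ran between 0.554, that of Mrpl24, and 2.07 over the members.

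Both animals ranked the members alike, as a description across 78 genes that share 2 libraries. Spearman's rho between the animals' heights was 0.938 and Pearson's r on log2 heights was 0.920 over members, and these were 0.976 and 0.980 over the 13734 genes with a promoter peak in both animals, whose heights span a wider range. The same peak was strongest in both animals for 76 members (97.4%), by overlap of at least 1 base, and not for Mrps12 and Mrpl27. This was near the share over genes with a peak in both animals, 13081 of 13734 (95.2%). Mrpl19, with 11.5 and 11.7, had the largest shift in percentile, 18.9 points.

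Large and small subunit genes overlapped almost wholly in height. The median was 13.3 and 8.54 for the 51 large subunit genes and 11.5 and 7.66 for the 26 small subunit genes, differences of 1.74 and 0.879, against quartiles of 9.68 to 20.0 and 6.59 to 12.6 in the large subunit alone. Mitochondria-specific members had a median of 14.3 and 9.56 and members with a bacterial homologue 11.5 and 8.04. In both splits the ranges overlapped over nearly their whole length, and the genes of each class are not replicates of it.

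The other gene families of protein synthesis and respiration gave a scale for these levels. The members' median of 12.2 and 8.50 lay close to the 12.0 and 8.36 of the proteasome subunits (45 genes with a peak in each animal). The 82 genes for cytosolic ribosomal proteins had a median of 14.6 and 10.9 over 80 and 79 genes with a peak. Nuclear genes of oxidative phosphorylation, the process that the mitochondrial ribosome serves, had 16.0 and 10.7 over 81 and 78 of 85 genes. Each of these 3 families had genes without a peak in at least 1 animal: Rpl10l, Rpl39l and Rpl3l among cytosolic ribosomal proteins, Psma8 and Psmb11 among proteasome subunits, and 7 genes of oxidative phosphorylation, Cox4i2, Cox6a2 and Cox8b among them. The members had none.

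**Figure D2:**
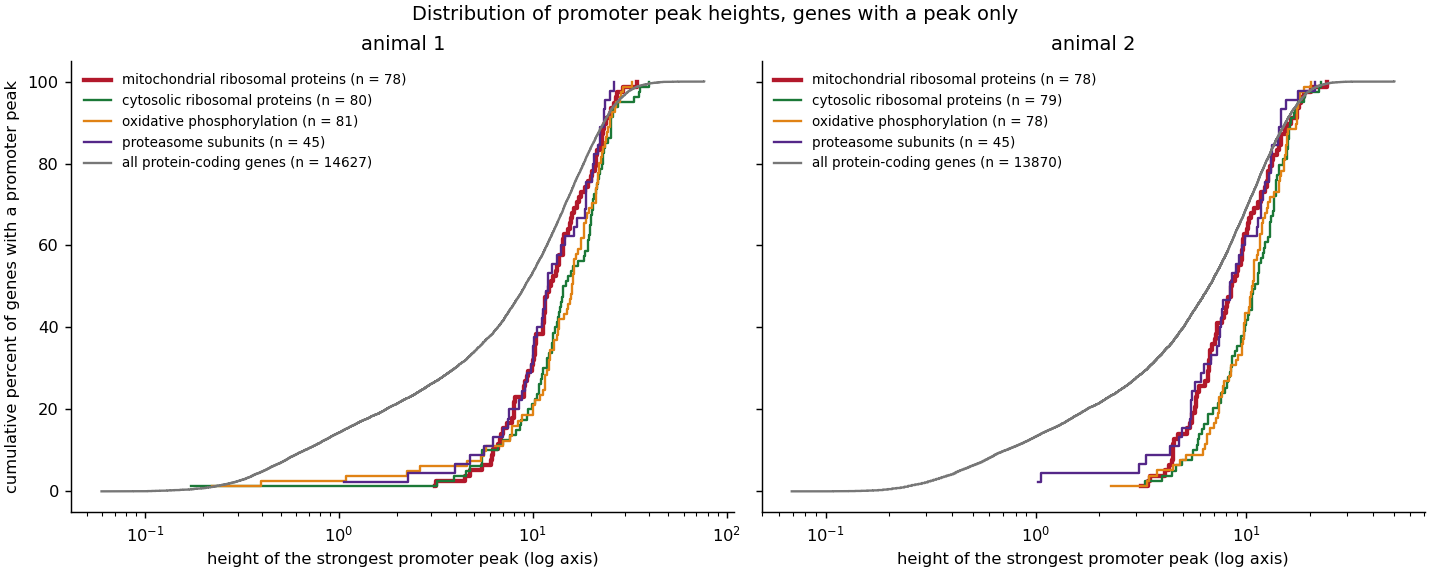
Cumulative percent of genes (vertical axis) against the height of their strongest promoter peak (log axis) for genes with a peak, in animal 1 on the left and animal 2 on the right. The curve of the 78 members starts at about 3 and runs with the proteasome genes, left of cytosolic ribosomal proteins and oxidative phosphorylation, while all protein-coding genes have a long tail of weak promoters that members lack.

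The content of CpG dinucleotides in a promoter, which goes with accessibility in general, was high in members but not extreme. All genes were cut into 5 classes by CpG number in the 300 bases around the representative start, 250 before to 50 after. None of the members fell in the lowest class, 1 in the 2nd, 26 in the 3rd, 33 in the 4th and 18 in the 5th. In the 3rd class the members' median height was 11.3 and 7.93, against 6.28 and 4.96 for genes of that class with a peak. In the 4th it was 11.6 and 8.43, against 12.3 and 8.43, so that members there did not stand above their class. In the 5th it was 18.2 and 13.1, against 12.8 and 8.47.

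Accessibility was concentrated on the start itself. The centre of the strongest peak lay a median of 31 and 30.5 bp from the nearest start in members, against 64.5 and 64.5 bp for all genes with a peak. It was within 100 bp for 64 members in each animal (82.1%), against 63.3% and 63.8% of genes. A single promoter peak was the whole signal at 45 and 47 members (57.7% and 60.3%), against 32.1% and 36.1% of genes with a peak. The related families shared this closeness to the start. The median distance was 29.5 and 31 bp in oxidative phosphorylation genes, 26.5 and 35.5 bp in proteasome genes and 47 and 43.5 bp in cytosolic ribosomal protein genes. A single peak was found at 46.9% and 56.4% of oxidative phosphorylation genes, 51.1% and 55.6% of proteasome genes and 38.8% and 50.6% of cytosolic ribosomal protein genes. Bases with a false discovery rate of cutting of at most 0.05 numbered a median of 921.5 and 919 per member window, against 1105 and 1122 in genes with a peak. The members' windows covered a median of 2003 bp, against 2211.5 bp for genes with a peak in both animals.

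The profile around the start showed the same narrow shape. At -20 bp, 91.0% and 92.3% of members lay inside a peak, against maxima of 72.3% and 71.9% for genes with a peak in both animals, both at -40 bp. Inside a footprint the maximum for members was 46.2% at -40 bp and 47.4% at -20 bp, against 29.7% and 27.7% for genes with a peak. Genes whose heights lay between the members' quartiles in both animals reached 80.9% and 81.3% in a peak and 36.8% and 36.4% in a footprint, between members and the rest. Farther out the share of members inside a peak was mostly below that of other genes, while their footprint line, based on 78 genes, crossed the others in both directions.

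**Figure D3:**
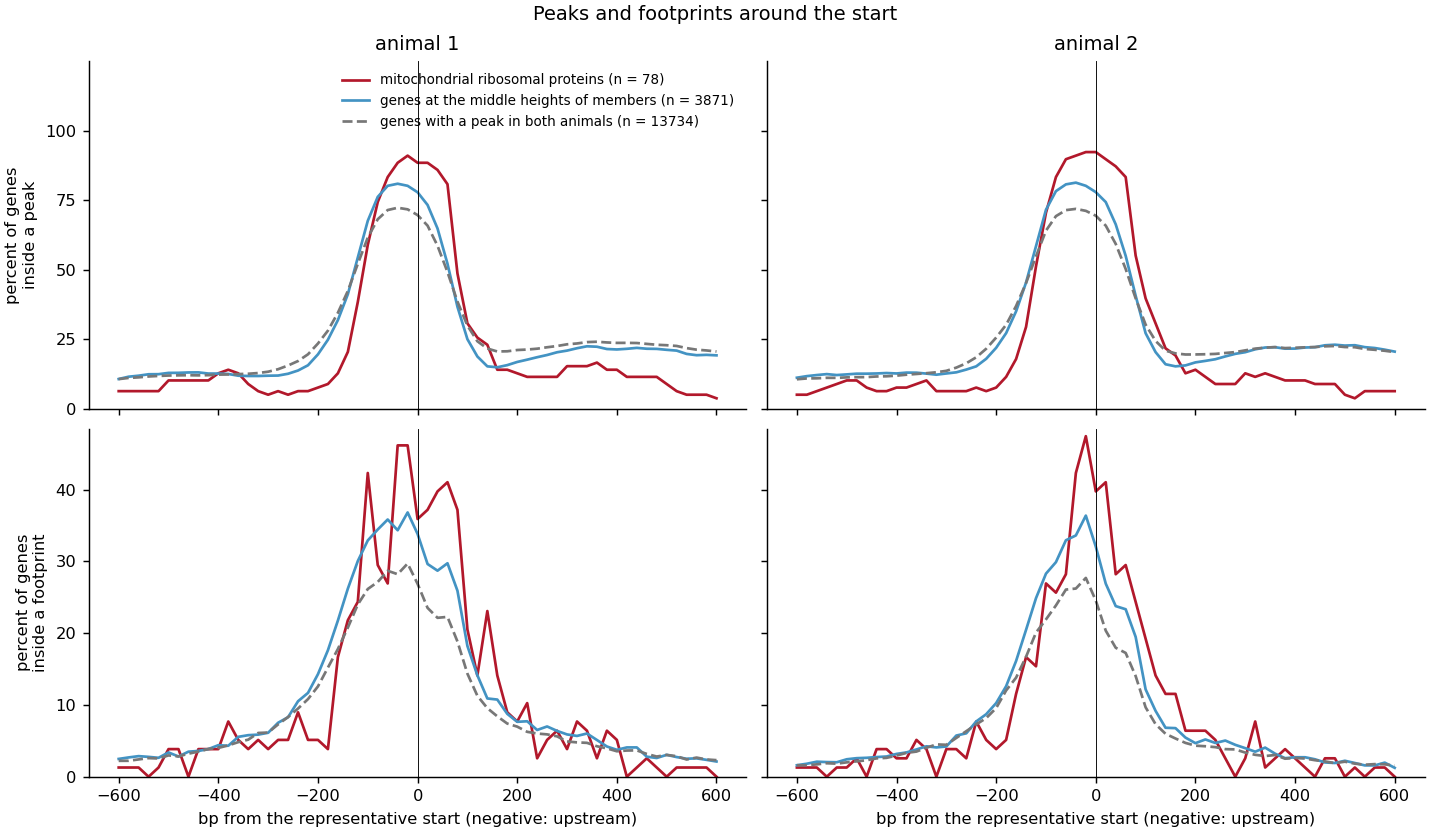
Percent of genes inside a peak (top) and inside a footprint (bottom) at each 20 bp step from the representative start, upstream negative, in animal 1 on the left and animal 2 on the right. Members (red) have maxima of 91.0% and 92.3% in peaks and 46.2% and 47.4% in footprints close to the start. These are above the maxima of genes of similar height (blue) and of all genes with a peak (dashed grey). The red footprint line crosses the others close to the start as well as farther out. Beyond about 200 bp the red line is mostly lower in peaks.

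Members had slightly fewer footprints per window than genes of similar height, and about as much of the core promoter was footprinted. The promoter windows held a median of 7.5 and 6 footprints per member, against 8 and 7 per gene with a peak, and against 9 and 8 in genes whose heights lay between the members' quartiles. Every member had at least 1 footprint in both animals, while 2.44% and 4.42% of genes with a peak had none. In the 300 bases around the start, 26.5% and 23.1% of the members' bases were footprinted, against 21.6% and 18.4% in genes with a peak in both animals and 26.6% and 22.9% in genes whose heights lay between the members' quartiles in both animals. The 34 members within those heights had 24.7% and 21.3%. Mrpl48 had the most, 37 and 29, over 7 annotated starts that spread its window widely. Mrps18b had 21 and 14 and Mrpl40 18 and 17, both beside a divergent neighbour.

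For 8 members the strongest peak was centred more than 200 bp from every annotated start in both animals. In 6 of them (Mrps18b, Mrpl47, Mrpl48, Mrpl51, Mrpl54 and Mrpl13) the neighbouring gene's promoter window held that peak too. The peak of Mrps18b, for example, was centred at -441.5 and -451.5 bp and overlapped an exon of its neighbour Ppp1r10. The remaining 2 were Mrpl39, at +431.5 and +441.5 bp, and Mrps28, at +397.5 bp in both. RefSeq starts differ in both directions. For 57 of the 69 members with a RefSeq start, it lay within 50 bp of a GENCODE start. Measured from RefSeq starts, the peak centres of Mrpl39 were at -66.5 and -56.5 bp, and those of Mrpl47 and Mrpl48 also came closer, at -115.5 and -155.5 bp and at -28.5 and +81.5 bp. Those of Mrpl20 moved away to +712.5 and +702.5 bp and those of Mrpl36 to -2518.5 and -2508.5 bp. In all, 7 of the 69 had their strongest peak centred more than 200 bp from every RefSeq start in both animals.

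Members shared their promoters with other genes more often than the typical gene. The strongest peak of 35 members (44.9%) also overlapped the promoter window of another protein-coding gene in both animals, against 18% of the 13734 genes with a peak in both animals, and no member differed between the animals. The corresponding counts were 15 of 79 cytosolic ribosomal protein genes (19.0%), 30 of 78 oxidative phosphorylation genes (38.5%) and 12 of 45 proteasome genes (26.7%). In the annotation alone, 32 members (41.0%) had another coding gene starting head to head within 1000 bp, against 2374 of all genes (10.9%). Even in the CpG-rich 4th and 5th classes the share among all genes was 18.4% and 19.9%. Whether a shared peak serves the member, its neighbour or both was not tested.

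The 35 members formed 36 pairs with a neighbour. In 25 pairs the genes ran apart from separate starts, a median of 81 bp from each other, and in 8 more they ran apart with 5′ ends that overlapped. A further 2 pairs, both of Mrps6, were on the same strand. The pair of Mrps30 with B430218F22Rik had its starts in the same order as the 8 overlapping pairs. It was counted apart as convergent by distance alone, with starts 622 bp from each other against at most 496 bp in the 8. The closest starts were those of Mrpl18 and Tcp1, which encodes a subunit of the cytosolic chaperonin TRiC, at 16 bp. The widest spacing was that of Mrpl34 and Abhd8, at 1304 bp.

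**Figure D4:**
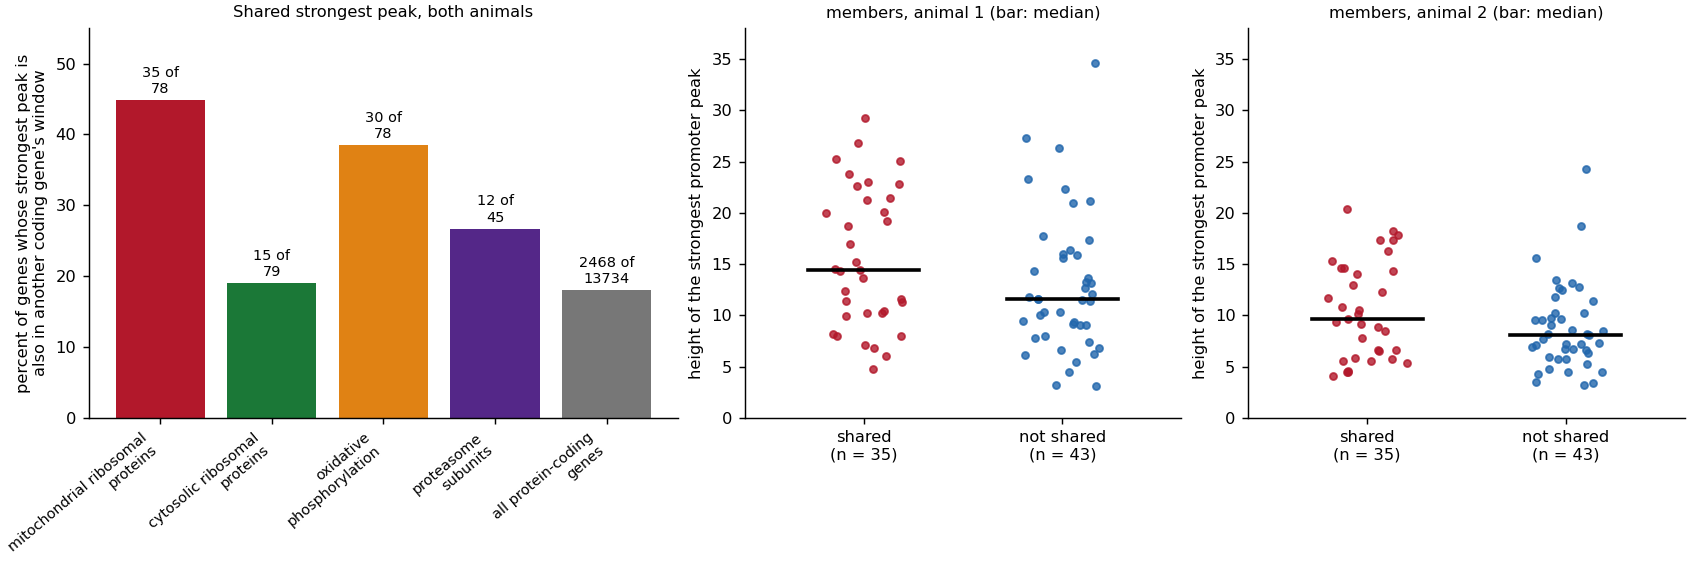
Left, percent of genes whose strongest promoter peak also lay in another coding gene's window in both animals, out of those with a peak in both; bars start at 0 and carry the counts, 35 of 78 for members and 2468 of 13734 for all genes. Middle and right, heights of the 35 members that share the peak and the 43 that do not in animals 1 and 2, with the median as a black bar; the clouds overlap.

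Several of these neighbours work in the same organelle. Mrps11 and Mrpl46, a small and a large subunit gene, started 30 bp apart on chromosome 7 under a single peak of height 8.01 and 5.50, so that 78 members stood on 77 promoters. Mrps12, which encodes the homologue of the decoding-centre protein S12, was paired at 182 bp with Sars2, the mitochondrial seryl-tRNA synthetase. Its heights of 12.4 and 8.83 are those of different peaks, which did not overlap between the animals. Mrpl43 was paired at 116 bp with Twnk, the helicase that replicates mitochondrial DNA (21.2 and 12.9). Mrpl47 was paired with Ndufb5 (21.5 and 17.3) and Mrpl36 with Ndufs6 (11.3 and 7.82), both encoding subunits of respiratory complex I. The pair of Mrpl36 rests on an annotated start other than its representative one. From its RefSeq start that peak was centred at -2518.5 and -2508.5 bp. Mrpl32 was paired at 75 bp with Psma2, a proteasome subunit (17.0 and 12.2). Together 7 of the 36 pairs had a member or a gene of the listed families as neighbour, the pair of Mrps11 and Mrpl46 counting from both sides.

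The 6 highest members that share the peak had neighbours of varied function. Mrpl49 was paired at 59 bp with Fau, which encodes a cytosolic ribosomal protein fused to a ubiquitin-like protein. Mrps18b stood 177 bp from Ppp1r10, a regulator of protein phosphatase 1, and Mrpl2 207 bp from Klc4, a kinesin light chain. Mrps27 was 81 bp from Ptcd2, which encodes another pentatricopeptide repeat protein of mitochondria. Mrpl18 and Mrpl34, given above, are the other two.

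The stretches between divergent starts are shown for 3 pairs, read on the member's strand at chr19:6057785-6057844 for Mrpl49 and Fau, chr7:28741820-28742002 for Mrps12 and Sars2, and chr7:78783089-78783119 for Mrps11 and Mrpl46. The pair of Mrps12 was added after its values were seen, and its strongest peak in animal 1 lies outside the stretch shown. Capitals mark bases inside a footprint in both animals.
Mrpl49 and Fau: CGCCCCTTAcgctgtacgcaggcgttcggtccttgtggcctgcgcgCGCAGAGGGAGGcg
Mrps12 and Sars2: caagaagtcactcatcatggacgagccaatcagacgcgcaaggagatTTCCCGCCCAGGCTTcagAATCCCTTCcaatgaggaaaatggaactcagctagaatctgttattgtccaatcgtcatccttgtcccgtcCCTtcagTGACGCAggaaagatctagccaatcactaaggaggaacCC
Mrps11 and Mrpl46: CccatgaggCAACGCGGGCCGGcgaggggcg
A footprint of 13 bases in animal 1, within one of 29 bases in animal 2, lay between the starts of Mrps11 and Mrpl46. Between Mrpl49 and Fau both ends were footprinted in both animals and the middle was not.

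Shared promoters were somewhat higher, among members less so than among all genes. The 35 members that share the peak had a median of 14.4 and 9.67, against 11.5 and 8.04 for the 43 that do not, with ranges of 4.72 to 29.2 and 4.10 to 20.4 against 3.14 to 34.6 and 3.15 to 24.2. Over all genes with a peak in both animals the medians were 14.3 and 10.1 with sharing and 8.76 and 5.87 without. Shared members also had more CpGs, a median of 23 in the 300 bases against 18, and more footprints in the window, 9 and 7 against 6 and 6. What part these play in the height was not tested.

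Motifs of NRF1, ETS and YY1 were common near the members' starts. Each motif was searched on both strands of the 300 bases around the representative start, where a match is a description and not proof of binding. The ETS motif CCGGAAG was found in 29 members (37.2%), against 11.2% of all genes and 16.2% of genes with a peak in both animals. Weighted to the members' CpG classes, the share of genes with a peak was 17.0%. The NRF1 motif GCGCANGCG was found in 14 members (17.9%), against 8.58% of all genes, 12.6% of genes with a peak and 12.7% at the members' CpG classes. The YY1 motif AAGATGGCG was found in 8 members (10.3%), against 1.85%, 2.82% and 2.91%. At least 1 of the 3 was present in 43 members (55.1%), against 28.1% of genes with a peak. Among promoters with heights between the members' quartiles in both animals, the ETS motif was in 11 of 34 members (32.4%), against 23.1% of 3871 genes, NRF1 in 6 (17.6%, against 16.4%) and YY1 in 6 (17.6%, against 4.55%). At matched height NRF1 was about as common in other genes as in members.

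The SP and KLF motif was less common in members than in genes with a peak, while the NFY, E-box and CRE motifs were only slightly less common. A CG-rich palindrome was above the level of genes but in only 3 members. The SP and KLF motif GGGCGG was in 38 members (48.7%), against 63.3% of genes with a peak and 66.6% at the members' CpG classes. The NFY motif CCAATNNG was in 11 members (14.1%), against 18.2% of genes with a peak. The E-box CACGTG was in 5 (6.41%, against 9.70%) and the CRE motif TGACGTCA in 2 (2.56%, against 3.38%). The palindrome CTCGCGAG was in 3 (3.85%, against 1.78%), and none of its 3 occurrences had its centre in a footprint in either animal. The ZNF143 motif ACTACAATT, in 0.728% of genes with a peak, was in none. None of the 20 NRF1 or 8 YY1 occurrences in members overlapped another motif searched, and 1 of 33 ETS occurrences did, while 2 NRF1 occurrences were a palindrome read on both strands.

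The ETS motif was also more often footprinted in members. Of its 33 occurrences, 23 and 24 had their centre in a footprint (69.7% and 72.7%), against 45.3% and 44.4% of 2702 occurrences at genes with a peak. Within 50 bp of the start alone it was 18 and 20 of 27 in members (66.7% and 74.1%), against 49.2% and 49.4% of 1639. At the matched heights it was 7 and 10 of 12 occurrences in members (58.3% and 83.3%), against 46.9% and 47.0% of 1099. NRF1 occurrences were footprinted at 85.0% in both animals, 17 of 20, against 82.4% and 82.9%, so members did not stand apart there. At the matched heights NRF1 was footprinted at 5 of 8 occurrences in each animal (62.5%), against 82.5% and 84.5% of 902. YY1 occurrences were footprinted 5 of 8 times in each animal, against 57.1% and 56.9%. Counted by gene, 19 members had a footprinted ETS motif in both animals (24.4%, against 6.28% of genes with a peak), 13 a footprinted NRF1 motif (16.7%, against 9.87%) and 4 a footprinted YY1 motif (5.13%, against 1.32%). At least 1 of the 3 was footprinted in both animals in 32 members (41.0%), against 16.3% of genes with a peak.

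**Figure D5:**
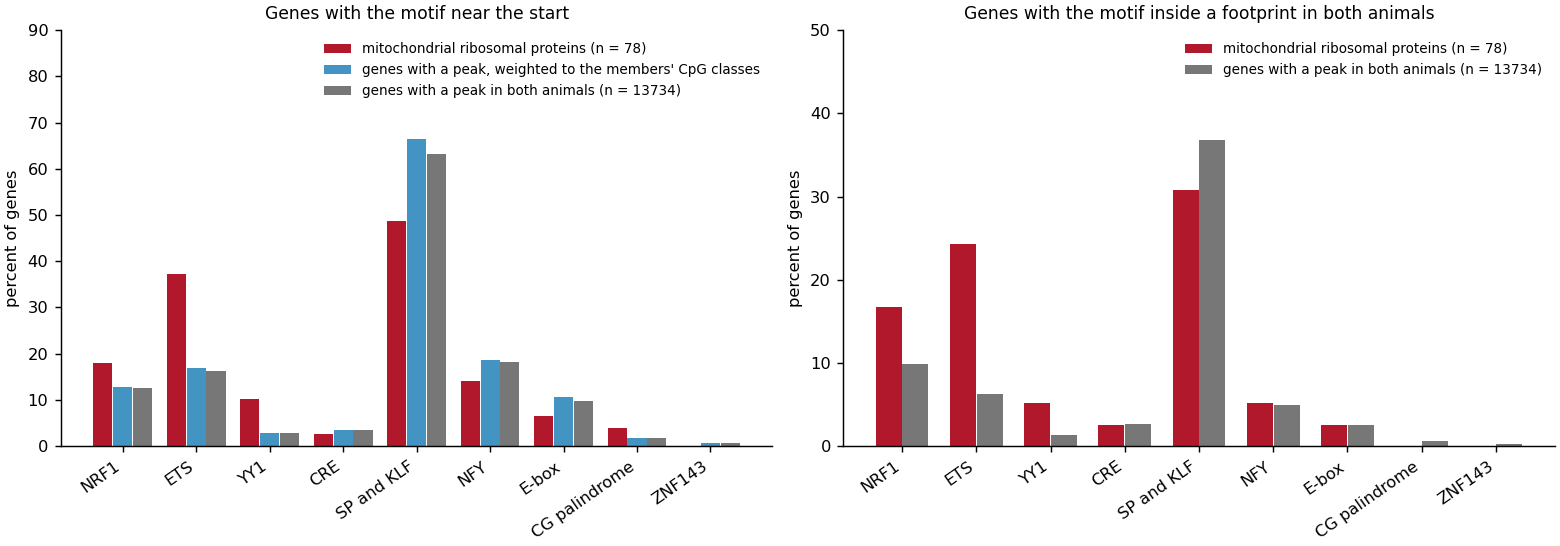
Left, percent of genes with each motif in the 300 bases around the start, for members (red), genes with a peak weighted to the members' CpG classes (blue) and genes with a peak in both animals (grey). Right, percent with the motif centred in a footprint in both animals; bars start at 0, and ETS shows the widest gap, 24.4% of members against 6.28% of genes.

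Each motif had its own place. The median centre of the NRF1 motif in members was -28.5 bp, against -50 bp in genes with a peak, and that of YY1 was +20 bp, against +9 bp. Mrpl45 had 3 NRF1 occurrences, at -116, -34 and +20 bp, all footprinted in both animals, and Mrpl17 had those printed above. In Mrps9 the NRF1 motif was centred on the start itself. Members with an NRF1 motif had a median height of 14.6 and 9.90, against 11.5 and 8.44 for the 64 without, and those with an ETS motif 12.4 and 8.83, against 12.1 and 8.43 for the 49 without. Members with a YY1 motif had a median of 10.4 and 7.01, against 12.5 and 8.93 for the 70 without. The ranges overlapped in each split, from 9.01 to 34.6 in animal 1 for the NRF1 members, for instance, against 3.14 to 29.2 for those without.

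The same motifs were also found in the related gene families. The ETS motif, in 37.2% of members, was in 34.0% of proteasome genes, 29.3% of cytosolic ribosomal protein genes and 17.6% of oxidative phosphorylation genes. The NRF1 motif, in 17.9% of members, was in 17.6% of oxidative phosphorylation genes, 14.9% of proteasome genes and 9.76% of cytosolic ribosomal protein genes. The YY1 motif, in 10.3% of members, was in 5.88% to 8.51% of the genes of these 3 families.

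Peaks around the genes outside promoters were about as frequent as for other genes. In the gene body and 10000 bp each side, leaving out every coding gene's promoter window, members had a median of 1 and 1 peaks, against 2 and 1 for all protein-coding genes, and 17 members had none in either animal. Counted per animal, 24.4% and 29.5% of members had no such peak, against 27.3% and 32.3% of all genes. The genes themselves were shorter, with a median length of 7899.5 bp against 17396 bp for all genes. Mrps27 had the most, 14 and 12, within a gene that spans chr13:99344786-99415562. Mrpl58, which encodes a peptidyl-tRNA hydrolase built into the ribosome, had 6 and 10. Mrpl38 had 11 and 4, and Mrps28, with the same mean, had 9 and 6. Which gene these peaks act on was not tested.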

How the data were processed

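For each animal the authors deposited 2 peak lists of unequal length, footprints, and bases with false discovery rates of cutting. Per the deposited descriptions the assembly is mm10, and every file was made from the alignments of a single animal, without pooling. The names of aligner and callers were not given in the sources used here. The peak height is a signal the authors deposited, with a scaling not stated there, and sequencing depth is unknown. The false discovery rates deposited by the authors are of the p-value kind, all at most 0.05, and each footprint carries the entry 0.01. Few animals limit the precision: errors are the SD over 2 animals, which may be samples of a single donor.

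From these, promoter windows of 1000 bp each side of every protein-coding transcript start (GENCODE M21, without the mitochondrial chromosome) were overlapped by at least 1 base with the longer peak list and with footprints. The strongest overlapping peak gave the height. Motifs were read from GRCm38.p6 around the start of 1 representative transcript (by APPRIS class, support level and length), and RefSeq starts came from the promoter table of that assembly, in which 69 members matched. Python 3.11.15, numpy 2.4.6, pandas 2.3.3 and pysam 0.24.0 were used, and the overlap and motif steps were tested on simulated data. No statistical test was run.

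Named members are the 8 highest and 5 lowest, the 6 highest that share a peak, those with a member or listed gene as neighbour, those with most footprints or distal peaks, and up to 8 with a footprinted NRF1 or YY1 motif. Members named outside this rule, such as Mrpl19, Mrpl24, Mrps6, Mrps30, Mrpl16 and those with peaks away from the start, and the sites shown for further ETS members, were chosen after their values were seen, as was the comparison at matched height. The members, lists, motifs and this rule were chosen with earlier results of these data known.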

Additional observations from a re-analysis of the deposited data

How the results depend on the processing

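No paired analysis was possible because both animals form 1 group and nothing was compared between groups. Of 79 recomputed values, 69 stayed within the spread between animals or, for counts, within 1.5 times, and no difference changed sign. Medians and differences with 1 animal left out could not leave that spread, which is the SD of the same 2 animals. Their place among the 69 is therefore no sign of stability. All 78 members kept a promoter peak in both animals under each alternative tried, among them the smaller list, windows of 500 and 2000 bp and peaks above the median height of the list. The window of 2000 bp and leaving out an animal could not lower this count. Nor could the cut at the median height of the list, 0.764 and 0.899, since the lowest member had 3.14 and 3.15. The count of members that share their strongest peak lay between 30 (representative start only) and 41 (neighbours of every biotype). Leaving out either animal gave a median height of 8.50 to 12.2, a large minus small subunit difference of 0.879 to 1.74, a shared minus unshared difference of 1.63 to 2.87, 6 to 7.5 footprints, a distance of 30.5 to 31 bp and 1 distal peak, and left the count of shared peaks at 35. With the representative start only, the subunit difference was 0.660, the distance 33 bp and the distal count 1.5, which was also its value with a 500 bp window. The distal count was 0 in the gene body alone and 4.5 with 50 kb each side. Footprints inside promoter peaks alone numbered 5. With 500 bp searched each side, 26 members had an NRF1 motif, and with the strict motif GCGCATGCG 5 did, all footprinted, against 13.2% and 2.51% of all genes. With either animal left out, footprinted ETS motifs were counted in 22 members each, NRF1 in 13 and YY1 in 5. Peak lists and heights of unknown depth and scaling limit comparisons between animals.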

Other observations

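The members' partners in mitochondrial translation were accessible as well. All annotated genes of 6 further lists (Ict1 and Znf143 were not found under those symbols) had a promoter peak in both animals. These lists, like the members, were chosen with results of these data known. Among aminoacyl-tRNA synthetases and related enzymes of mitochondria, the median height of 22 genes was 14.0 and 9.02, led by Gatb (30.1 and 18.8), a subunit of the glutamyl-tRNA amidotransferase, and Pars2 (26.7 and 15.8), and 9 of them shared their strongest peak with another coding gene. Among 26 genes for ribosome assembly and rRNA modification the median was 10.8 and 7.84, led by the GTPase gene Noa1 (25.9 and 17.2) and the pseudouridine synthase gene Rpusd3 (28.2 and 13.9). Of these 10 (38.5%) shared their peak, and 25 of the 26 (96.2%) had a peak in each animal's smaller list. The shares over all protein-coding genes in the smaller lists were 62.9% and 59.7%. The 12 genes for transcription and replication of mitochondrial DNA had 16.0 and 9.09, with Polg (26.2 and 16.1) and Tfb2m (25.1 and 15.9) highest. The 12 translation factors had 12.5 and 7.56, with Guf1 (19.6 and 13.0) and the elongation factor gene Tufm (17.2 and 14.8) highest. The 6 genes for ribosomal or ribosome-bound proteins under other symbols had 10.1 and 6.44, a median percentile of 53.8 and 48.8 among promoters with a peak. They were led by Aurkaip1 (18.02 and 11.0) and by Oxa1l (14.5 and 8.95), which encodes a ribosome-bound insertase of the inner membrane.

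Genes for regulators of nuclear mitochondrial genes spread most widely of the 6 lists. Esrra, which encodes the nuclear receptor ERR alpha, had 39.6 and 24.1 and Zfp143 36.2 and 20.3, while Ppargc1a, the coactivator PGC-1 alpha, had 0.477 and 0.435. Among the genes for the factors whose motifs were searched, Yy1 had 24.4 and 14.9, Nrf1 15.8 and 9.35 and Gabpa 12.1 and 10.5. The lowest gene of the assembly list was Mtg2, a ribosome-associated GTPase, at 0.618 and 0.593, and the lowest translation factor was the release factor gene Mtrf1 at 2.21 and 2.27.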
